A study of Mus musculus with 20 samples.

Results

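Transcript levels of 10 interferon-inducible GTPases were followed in 20 mouse melanomas given an antiarrhythmic drug, a checkpoint antibody, both or neither. The genes were taken by symbol: 6 guanylate-binding proteins (Gbp2, Gbp3, Gbp4, Gbp5, Gbp6 and Gbp7) and 4 immunity-related GTPases (Igtp, Irgm1, Irgm2 and Iigp1). All 10 were found among the 32285 genes of the count table, and all 10 were among the 15875 genes kept by the filter on low counts. Every tumour was grown from B16F10, a melanoma cell line of C57BL/6 origin labelled wild type, in C57BL/6 mice with an intact immune system. The 4 groups of 5 tumours received control IgG, propafenone (a blocker of cardiac sodium channels), anti-PD-1 (an antibody that blocks PD-1, a brake on T cells), or propafenone with anti-PD-1, called the combination here. Agents were injected into the peritoneum once tumours measured about 100 mm3, and tumours were removed on day 16. The labels do not state the age of the mice, or whether any tumours shared a mouse. The p-values set group differences against the spread between these tumours and take the tumours as independent. The sample labels name propafenone alone for that group and do not state whether it also received IgG. The series title names ferroptosis and synergy with immunotherapy as the subject.

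Guanylate-binding proteins and immunity-related GTPases are among the genes most strongly switched on by interferon gamma, the cytokine of activated T cells and natural killer cells. Interferon gamma signals through its receptor and the JAK1 and JAK2 kinases and switches on, among others, the gene of the transcription factor IRF1. Genes induced in this way often carry GAS (gamma-activated site) elements in their DNA, and IRF1 in turn binds a different element, the ISRE (interferon-stimulated response element). The proteins hydrolyse GTP, assemble on the membranes of vacuoles that hold microbes, and take part in inflammasome activation. In tumour tissue both cancer cells and infiltrating cells can make these transcripts. In bulk RNA, fewer cells of a type and less RNA per cell cannot be told apart, and B16F10 and host transcripts are counted together.

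The 10 genes sit on 4 chromosomes of the mouse genome (GRCm38 coordinates, GENCODE release M21, all annotated as protein-coding). One cluster on chromosome 3 holds Gbp5 (ENSMUSG00000105504, chr3:142493978-142522344, plus strand), Gbp7 (ENSMUSG00000040253, chr3:142530342-142550149, plus strand), Gbp3 (ENSMUSG00000028268, chr3:142560026-142573209, plus strand) and Gbp2 (ENSMUSG00000028270, chr3:142620602-142638008, plus strand). Another on chromosome 5 holds Gbp4 (ENSMUSG00000079363, chr5:105115767-105139586, minus strand) and Gbp6 (ENSMUSG00000104713, chr5:105270702-105293698, minus strand). Chromosome 11 holds Irgm1 (ENSMUSG00000046879, chr11:48861968-48871683, minus strand) and, further along, the neighbours Igtp (ENSMUSG00000078853, chr11:58199556-58207591, plus strand) and Irgm2 (ENSMUSG00000069874, chr11:58199618-58222782, plus strand). Iigp1 lies apart from the others. Some of these genes share sequence or annotated span with others. Igtp and Irgm2 overlap on the same strand, and 11.8% of the 50-base words in Igtp transcripts also occur in Irgm2. Gbp6 shares 70.7% of its words with other genes, most of them with Gm43302, a gene annotated over it, and Gbp7 shares 12.7%, most with Gm43802. Gbp4 overlaps Gbp8 and Gbp9 on its own strand. Gbp2 overlaps Mir6381 on the opposite strand, and the strand setting of the counting is not given in the sources used here. The split of reads among these partners is therefore uncertain, above all for Gbp6. The other members shared at most 7.77% of their words.

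The stretches of promoter with ISRE-like or GAS-like letters are shown because their letters resemble the ISRE and GAS elements described above. RefSeq promoter windows (GRCm38.p6) were matched for 7 members: Gbp2, Gbp3, Gbp5, Gbp7, Igtp, Irgm1 and Irgm2. Each stretch is written 5′ to 3′ on the strand of its gene, with matches to GAAANNGAAA (ISRE-like) or TTCNNNGAA (GAS-like), on either strand, in capitals.
Gbp2: cttttagTTTCACTTTCactgtct
Gbp3: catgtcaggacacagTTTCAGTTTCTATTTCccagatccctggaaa
Gbp5: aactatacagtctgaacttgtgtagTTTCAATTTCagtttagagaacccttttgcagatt
Gbp7: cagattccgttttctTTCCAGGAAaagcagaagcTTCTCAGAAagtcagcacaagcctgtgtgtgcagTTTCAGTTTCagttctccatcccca
Irgm1: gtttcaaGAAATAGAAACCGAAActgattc
Igtp: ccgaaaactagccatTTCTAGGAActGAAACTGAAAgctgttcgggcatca
Irgm2: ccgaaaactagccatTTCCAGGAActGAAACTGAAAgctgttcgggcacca
They lie at chr3:142620597-142620620 for Gbp2, chr3:142559984-142560029 for Gbp3, chr3:142496744-142496803 for Gbp5 and chr3:142530215-142530307 for Gbp7, all on the plus strand. The others lie at chr11:48871428-48871457 on the minus strand for Irgm1, and at chr11:58199496-58199546 for Igtp and chr11:58214887-58214937 for Irgm2 on the plus strand. The Gbp5, Irgm1 and Irgm2 stretches fall wholly, and those of Gbp2 and Gbp3 in part, inside the GENCODE spans of those genes, while those of Gbp7 and Igtp lie outside the spans.

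An ISRE-like match stood within the 250 bases before the start site in 7 of the 7 matched genes, against 2.98% of all 32851 RefSeq windows of that length (978 windows). Gbp3 has a second RefSeq window, and it held no match. GAS-like letters were present for Gbp5, Gbp7, Igtp and Irgm2, against 7.02% of all windows (2306). Both kinds together were found in 0.332% of all windows (109). In Gbp3 and Irgm1 a pair of ISRE-like matches overlap by 4 letters, at -45 and -39 in Gbp3 and at -30 and -24 in Irgm1. The ISRE-like match began at -59 in Gbp2, -53 in Gbp7, -34 in Igtp and -64 in Irgm2, but at -165 in Gbp5, whose GAS-like matches began at -245 and -52. Igtp and Irgm2 carry nearly the same stretch, with a GAS-like match directly upstream of the ISRE-like one, and 197 of 221 aligned bases of their windows are identical (89.1%). These matches describe letters and do not show binding.

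**Figure D1:**
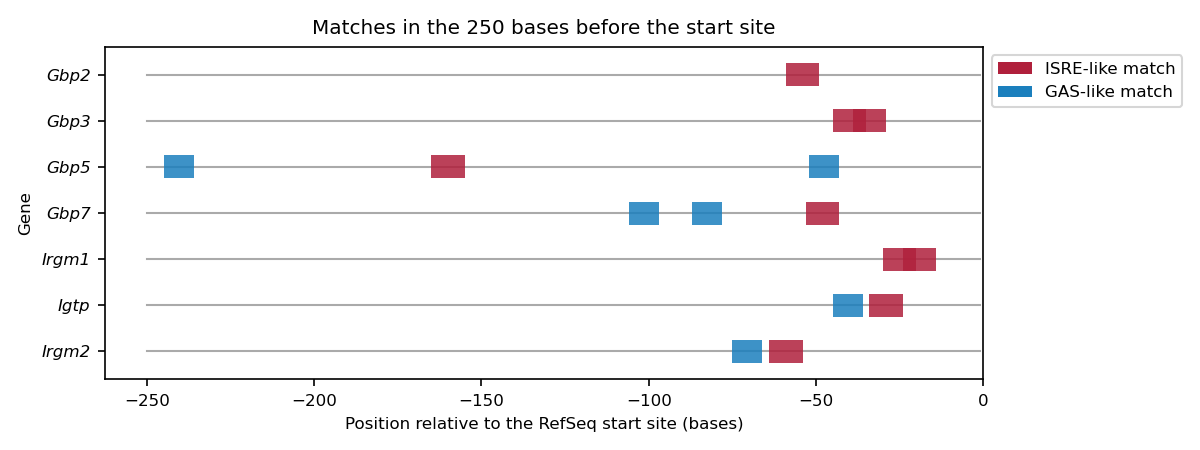
Positions of ISRE-like (red) and GAS-like (blue) matches in the 250 bases before the RefSeq start site of 7 members; the x axis is the distance from the start site in bases and each line is 1 gene. All 7 genes have an ISRE-like match, which lies within 64 bases of the start in 6 of them and at -165 in Gbp5.

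Libraries held 55.99 to 64.51 M expected counts (M, 1e6). The 10 melanocyte markers were high in every group, with summed levels of 17950 to 28280 CPM (counts scaled to 1e6 per library with TMM). Summed muscle markers ran from 6.95 to 89.9 CPM in IgG, 16.1 to 72.6 CPM in propafenone, 6.69 to 312 CPM in anti-PD-1 and 38.6 to 553 CPM in combination tumours. Hbb-bs, a haemoglobin gene of red blood cells, exceeded 1000 CPM in 5 libraries: IgG 4, IgG 5, propafenone 4, propafenone 5 and anti-PD-1 2.

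Levels of different genes were set side by side in TPM, the deposited measure per transcript length. Irgm1 was the most abundant member, with a mean of 119 TPM over the 20 tumours and a range of 24.8 to 282 TPM. It exceeded Igtp (mean 67.0 TPM) in 20 of 20 tumours. Igtp stood above Gbp2 (61.1 TPM) in 14 of 20, so the order of that pair varied between tumours. Gbp2 exceeded Iigp1 (37.2 TPM) in all 20, and Iigp1 exceeded Irgm2 (23.3 TPM) in 18. Further down, Irgm2 was above Gbp3 (16.2 TPM) in 16 tumours and Gbp3 above Gbp4 (13.3 TPM) in 16. Gbp4, Gbp6 (12.7 TPM) and Gbp7 (10.3 TPM) were not separated: Gbp4 exceeded Gbp6 in 11 of 20 tumours and Gbp6 exceeded Gbp7 in 13 of 20. Gbp5 was the least abundant, with a mean of 3.06 TPM and a range of 0.485 to 11.6 TPM, below Gbp7 in 20 of 20 tumours. The share of Gbp6 in this order carries the uncertainty of the sequence it has in common with Gm43302.

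Among the regulatory immunity-related GTPases, which hold effector family members inactive on the cell's own membranes, Igtp was at 26.6, 81.3, 34.1, 60.04 and 13.01 CPM in IgG tumours 1 to 5 and at 11.2, 127, 38.2, 147 and 35.97 CPM in propafenone tumours 1 to 5. In the same order it was at 11.5, 4.76, 62.7, 22.5 and 59.6 CPM in anti-PD-1 tumours and at 186, 43.5, 173, 44.2 and 85.9 CPM in combination tumours. Tumours of 1 group thus differed by up to 13.2-fold, and the groups overlapped. Irgm1, also a regulator, was at 82.7, 167, 83.6, 116 and 50.6 CPM in IgG, 40.2, 189, 98.4, 253 and 82.9 CPM in propafenone, 40.04, 30.4, 143, 56.6 and 145 CPM in anti-PD-1 and 296, 104, 263, 91.7 and 157 CPM in combination tumours. The ratio of the highest to the lowest Irgm1 level was 3.23 in combination and 6.28 in propafenone tumours. The third regulator, Irgm2, was at 20.97, 35.4, 20.6, 36.8 and 10.8 CPM in IgG, 10.2, 61.2, 21.6, 82.4 and 20.4 CPM in propafenone, 9.57, 8.24, 34.5, 16.3 and 45.1 CPM in anti-PD-1 and 114, 35.9, 88.6, 32.2 and 57.6 CPM in combination tumours. Combination 1, 3 and 5 stood above every IgG tumour for Irgm2, while combination 2 and 4 fell within the IgG range. Iigp1 (ENSMUSG00000054072, on chromosome 18), an effector that loads onto vacuoles of the parasite Toxoplasma, was at 25.5, 61.6, 31.7, 55.98 and 10.02 CPM in IgG, 6.27, 110.1, 31.2, 122 and 27.03 CPM in propafenone, 10.3, 3.38, 31.2, 17.1 and 47.95 CPM in anti-PD-1 and 154, 39.1, 124, 34.1 and 74.9 CPM in combination tumours. The propafenone tumours were the most scattered for Iigp1, with tumour 1 at the bottom and tumours 2 and 4 well above tumours 3 and 5.

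Among the guanylate-binding proteins, Gbp2, which in mice coats Toxoplasma vacuoles, was at 32.4, 131, 39.7, 63.7 and 16.3 CPM in IgG tumours 1 to 5 and 11.3, 135, 62.2, 161 and 49.1 CPM in propafenone tumours. It was at 12.03, 3.15, 90.97, 22.99 and 86.5 CPM in anti-PD-1 and 181, 45.99, 169, 49.02 and 88.3 CPM in combination tumours. Anti-PD-1 tumours 3 and 5 were close to combination 5, and anti-PD-1 tumour 2 was the lowest of all 20. Gbp5, which is linked to the NLRP3 inflammasome, was at 1.70, 5.07, 2.27, 4.28 and 1.47 CPM in IgG, 1.05, 7.27, 1.59, 9.84 and 1.92 CPM in propafenone, 0.991, 1.02, 2.79, 1.95 and 4.69 CPM in anti-PD-1 and 16.7, 3.27, 11.9, 3.86 and 7.57 CPM in combination tumours. Combination 1, 3 and 5 exceeded every IgG tumour and every anti-PD-1 tumour. Gbp4 was at 13.6, 44.2, 13.4, 25.9 and 2.73 CPM in IgG, 4.68, 50.1, 11.01, 63.8 and 10.4 CPM in propafenone, 4.22, 0.730, 22.8, 7.68 and 23.1 CPM in anti-PD-1 and 95.4, 13.1, 76.7, 20.1 and 38.5 CPM in combination tumours. This was the widest spread of the 10, 31.6-fold among anti-PD-1 tumours. Gbp7, linked to the oxidative burst of phagocytes, was at 13.5, 35.9, 13.3, 26.7 and 6.04 CPM in IgG, 6.33, 52.7, 18.05, 64.1 and 17.8 CPM in propafenone, 6.95, 2.40, 16.6, 12.2 and 25.5 CPM in anti-PD-1 and 79.4, 19.1, 61.2, 19.7 and 39.4 CPM in combination tumours. Its top tumours were again propafenone 2 and 4 and combination 1 and 3. Gbp6 ranged from 2.32 to 27.5 CPM in IgG, 3.90 to 53.0 CPM in propafenone, 1.31 to 21.7 CPM in anti-PD-1 and 17.5 to 69.7 CPM in combination tumours. Gbp3 ranged from 3.96 to 42.8 CPM in IgG, 3.80 to 37.8 CPM in propafenone, 2.77 to 28.1 CPM in anti-PD-1 and 11.7 to 47.3 CPM in combination tumours.

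**Figure D2:**
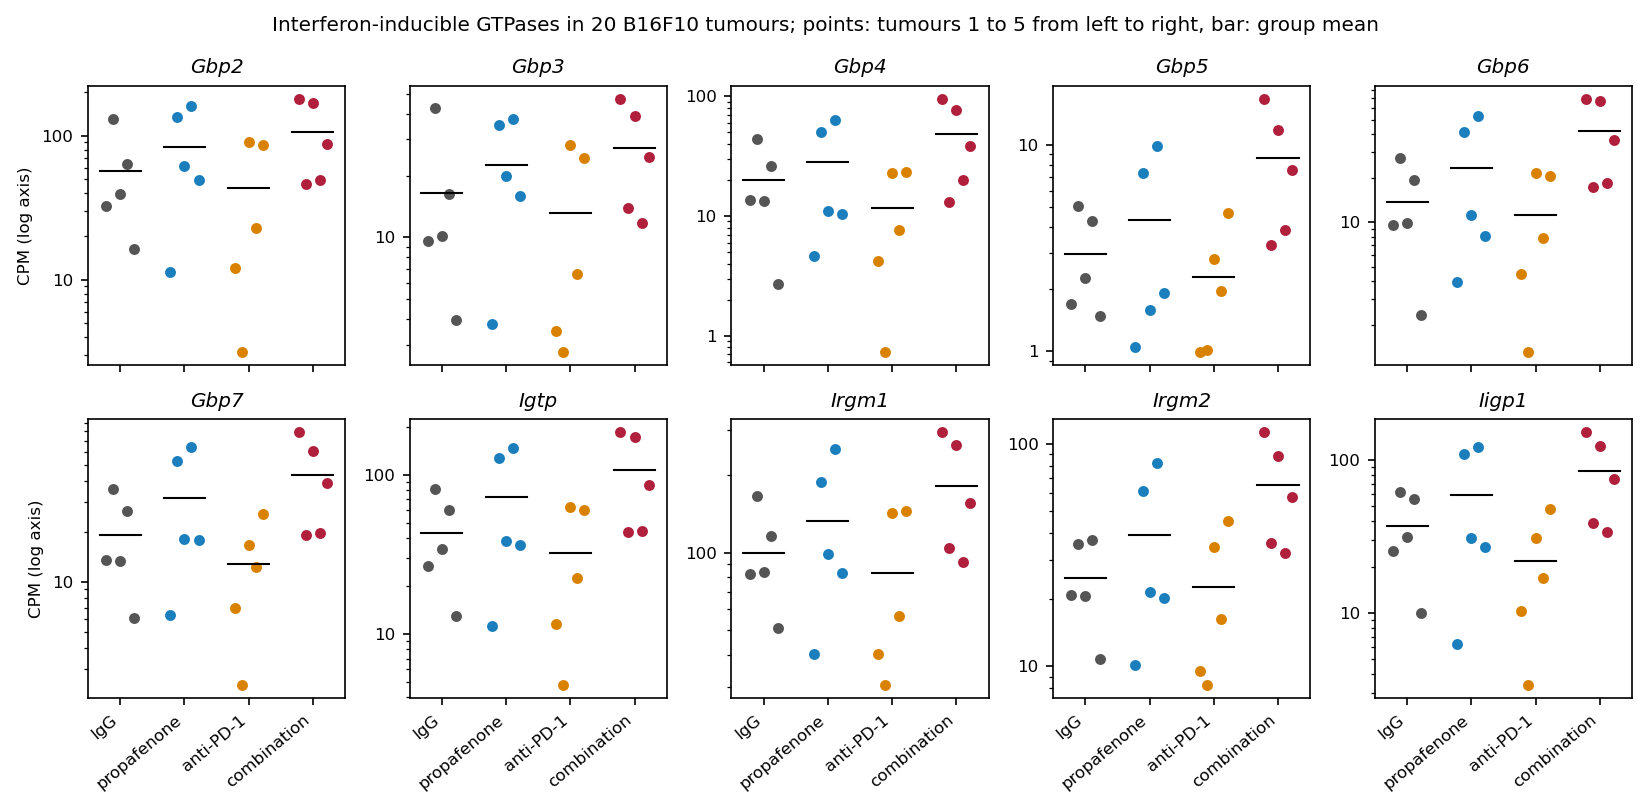
CPM of each of the 10 genes in every tumour, on a log axis, by group; points are tumours 1 to 5 from left to right and bars are group means of 5 tumours. The groups overlap in every panel, the combination mean is the highest and the anti-PD-1 mean the lowest, and the same tumours stand high or low from gene to gene.

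The 10 genes ranked the tumours of each group in nearly the same order. IgG 2 was the highest IgG tumour for 9 genes and IgG 4 for 1, and IgG 5 was the lowest for 10. Among propafenone tumours, tumour 4 was the highest and tumour 1 the lowest for 10 of 10 genes, with tumour 2 second. Anti-PD-1 tumours 3 and 5 were the top pair for all 10, and anti-PD-1 tumour 2 was the lowest for 9. Combination 1 was the highest for 10 and combination 3 second, while combination 2 was the lowest for 6 and combination 4 for 4. The summed level of the 10 genes ran from 58.1 CPM in anti-PD-1 tumour 2 to 1239 CPM in combination tumour 1. After group means were removed, the 45 pairs of members had Pearson r of 0.867 to 0.992 (median 0.962) and Spearman rho of 0.856 to 0.996 over the 20 tumours. The permutation p, and the value adjusted over the 45 pairs, was 1e-05 for each pair and each coefficient, the smallest that 100000 resamples can give. Without the 2 libraries farthest from the median of the first gene of a pair, r was 0.850 to 0.990. Genes with shared sequence or overlapping spans, such as Igtp with Irgm2, share reads to an unknown extent.

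**Figure D3:**
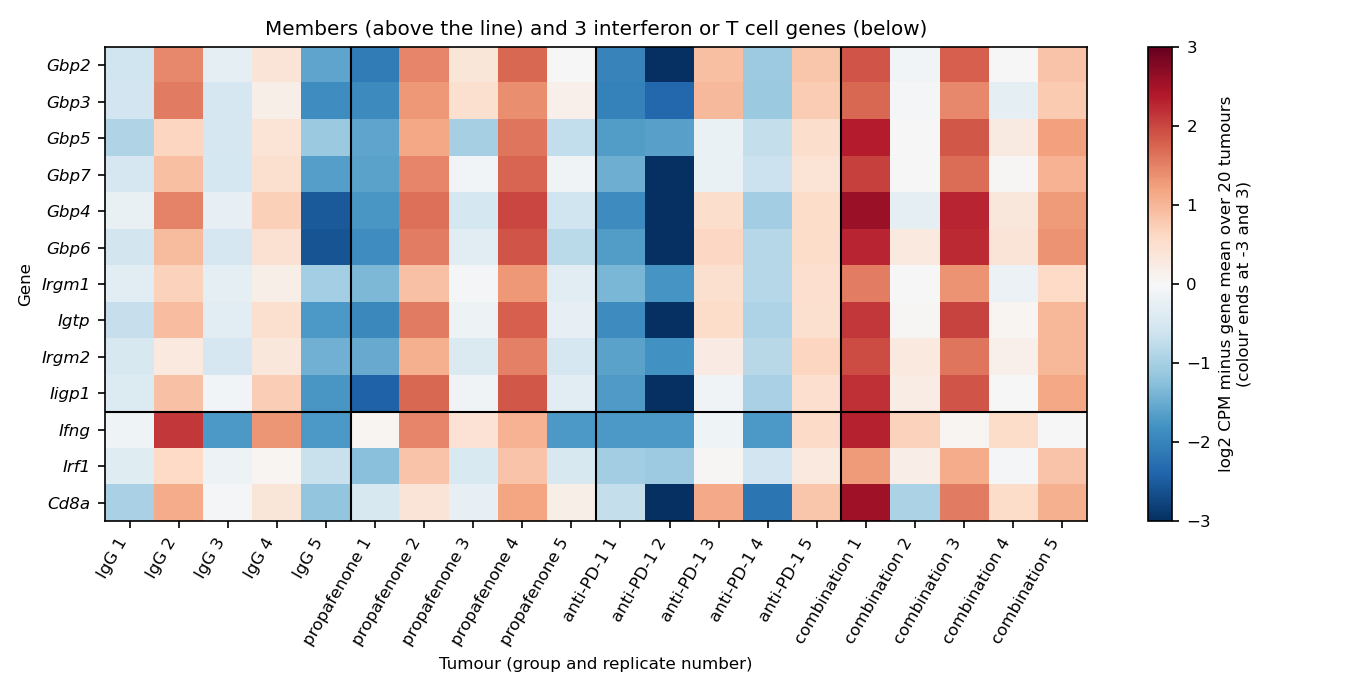
Level of the 10 genes (above the line) and of Ifng, Irf1 and Cd8a (below it) in each of the 20 tumours, as log2 CPM minus the mean of the gene over all tumours; red is above and blue below the mean, and vertical lines part the groups. Columns are coloured alike through the 10 genes. Anti-PD-1 tumour 2 is the lowest for every member but Gbp5, and propafenone tumours 2 and 4 are red as are combination tumours 1 and 3.

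This spread between tumours of 1 group was large next to that of other genes. The SD of log2 CPM within groups ran from 0.89 for Irgm1 (88.8th percentile of all genes tested) to 1.62 for Gbp4 (99.1st percentile), against a median of 0.24 over all genes tested. Differences between the 4 groups made up 19.0% (Gbp3) to 35.1% (Gbp5) of each member's variance, against a median of 22.6% over all genes.

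The comparisons below use edgeR's quasi-likelihood test over all 15875 genes, and calls were made where the Benjamini-Hochberg adjusted p was under 0.05. In all 10 genes the mean CPM followed one order: combination, propafenone, IgG, anti-PD-1. The medians did not all follow this order. Median CPM was lower in propafenone than in IgG tumours for Gbp4 (11.01 against 13.6), Gbp5 (1.92 against 2.27) and Iigp1 (31.2 against 31.7). None of the 10 was called in any of the 6 comparisons, and the ranges of the groups overlapped for 10 of 10 genes in each of the 5 pairwise comparisons. Since the members vary together across tumours, their common direction is not 10 separate observations. The comparisons share control samples, so each member's values are given comparison by comparison.

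Propafenone alone was compared with IgG to see what the drug did without the antibody. Every member had a higher mean in propafenone tumours, but by less than the spread between tumours. The differences ran from 0.41 for Irgm1 (SE 0.53) to 0.77 for Gbp6 (SE 0.80) on the log2 scale, with a median of 0.61 over the 10, beside 0.0036 over all genes tested. Igtp averaged 43.00 ± 27.4 CPM (SD, n = 5) in IgG and 71.9 ± 60.9 CPM in propafenone tumours, a log2 difference of 0.74 (SE 0.75) with a 95% interval of -0.84 to 2.33. The log2 difference was 0.56 (SE 0.81) for Gbp2, 0.45 (SE 0.74) for Gbp3, 0.49 (SE 0.88) for Gbp4, 0.55 (SE 0.62) for Gbp5 and 0.74 (SE 0.66) for Gbp7. It was 0.65 (SE 0.59) for Irgm2 and 0.68 (SE 0.75) for Iigp1. By edgeR 0 of 10 were called (adjusted p 0.920 to 0.965), beside 0.0% of all genes tested. At an unadjusted p under 0.05 the count was 0 of 10, beside 4.75% of all genes, and DESeq2 and limma-voom also called 0 of 10. The groups of 1.23% of all genes did not overlap, against 0 of 10 members. Propafenone tumours 2 and 4 lay above every IgG tumour for all members except Gbp3. Leaving out propafenone tumour 4 brought the median to 0.18, and leaving out IgG tumour 2 brought it to 1.05.

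Anti-PD-1 alone was compared with IgG, the comparison for the antibody without the drug. Here every member had a lower mean in treated tumours, again within the spread. Differences ran from -0.77 for Gbp4 (SE 0.89) and -0.75 for Iigp1 (SE 0.76) to -0.13 for Irgm2 (SE 0.59), with a median of -0.38 beside -0.0012 over all genes. Iigp1 averaged 36.96 ± 21.5 CPM (SD, n = 5) in IgG and 21.97 ± 17.8 CPM in anti-PD-1 tumours, and the 95% interval of its log2 difference was -2.34 to 0.85. The log2 difference was -0.39 (SE 0.81) for Gbp2, -0.34 (SE 0.74) for Gbp3, -0.37 (SE 0.63) for Gbp5, -0.30 (SE 0.80) for Gbp6 and -0.58 (SE 0.67) for Gbp7. It was -0.42 (SE 0.75) for Igtp and -0.27 (SE 0.53) for Irgm1. By edgeR 0 of 10 were called (adjusted p 0.900 to 0.986), beside 0.0% of all genes. At an unadjusted p under 0.05 the count was 0 of 10 beside 7.58% of all genes, and DESeq2 and limma-voom called 0 of 10. The groups did not overlap for 0.951% of all genes, against 0 of 10 members. Anti-PD-1 tumour 5 exceeded the IgG median for each member, whereas tumours 1 and 2 were below it for each. The direction rested partly on IgG tumour 2: without it the median was -0.026, and Gbp2, Gbp3, Gbp6 and Irgm2 were higher in anti-PD-1 tumours, at 0.18, 0.39, 0.12 and 0.030.

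Combination tumours were compared with IgG for the joint effect of both agents. All 10 genes had higher means, from 0.72 for Gbp3 (SE 0.74) to 1.60 for Gbp6 (SE 0.81), with a median of 1.25 beside -0.012 over all genes. Gbp5 averaged 2.96 ± 1.62 CPM (SD, n = 5) in IgG and 8.65 ± 5.67 CPM in combination tumours, a log2 difference of 1.55 (SE 0.63) and an edgeR adjusted p of 0.143. Irgm2 averaged 24.9 ± 11.02 CPM in IgG and 65.6 ± 34.96 CPM in combination tumours, a log2 difference of 1.40 (SE 0.59) and an edgeR adjusted p of 0.165. These 2 genes had the only 95% intervals that left out 0 in this comparison, 0.23 to 2.87 for Gbp5 and 0.14 to 2.65 for Irgm2, before adjustment over all genes. The log2 difference was 1.31 (SE 0.76) for Igtp, 1.29 (SE 0.89) for Gbp4, 1.20 (SE 0.76) for Iigp1 and 1.20 (SE 0.67) for Gbp7. It was 0.91 (SE 0.81) for Gbp2 and 0.87 (SE 0.53) for Irgm1. By edgeR 0 of 10 were called (largest adjusted p 0.584, for Gbp3), beside 2.24% of all genes called higher and 4.88% called in either direction. At an unadjusted p under 0.05 the count was 2 of 10 beside 23.6% of all genes, and DESeq2 and limma-voom called 0 of 10. Groups of 11.9% of all genes did not overlap in this comparison, against 0 of 10 members. Combination 1, 3 and 5 exceeded every IgG tumour for Gbp5, Gbp6, Gbp7, Igtp, Irgm2 and Iigp1.

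Combination tumours were also compared with anti-PD-1 tumours, the comparison for propafenone added to the antibody, and this gave the largest differences for each of the 10 genes among the 5 pairwise comparisons. They ran from 1.06 for Gbp3 (SE 0.74) to 2.06 for Gbp4 (SE 0.91), with a median of 1.75 beside -0.0093 over all genes. Gbp4 averaged 11.7 ± 10.5 CPM (SD, n = 5) in anti-PD-1 and 48.8 ± 35.9 CPM in combination tumours. Gbp5 was 1.92 (SE 0.64) higher on the log2 scale, with a 95% interval of 0.58 to 3.25 and an edgeR adjusted p of 0.445. The log2 difference was 1.95 (SE 0.78) for Iigp1, 1.90 (SE 0.82) for Gbp6, 1.78 (SE 0.68) for Gbp7 and 1.73 (SE 0.77) for Igtp. It was 1.53 (SE 0.60) for Irgm2, 1.31 (SE 0.82) for Gbp2 and 1.13 (SE 0.54) for Irgm1. At an unadjusted edgeR p under 0.05 the count was 8 of 10 (not Gbp2 or Gbp3), beside 9.78% of all genes. After adjustment 0 of 10 were called (0.445 to 0.643), beside 0.0% of all genes tested, and DESeq2 and limma-voom also called 0 of 10. Groups without overlap made up 2.37% of all genes and 0 of 10 members. Anti-PD-1 tumours 1, 2 and 4 lay below every combination tumour for all 10 genes. Tumour 5 lay within the combination range for all 10, and tumour 3 for all but Gbp5, Gbp7 and Iigp1. Without combination tumour 1 the median was 1.44, and without anti-PD-1 tumour 5 it was 2.14.

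Combination against propafenone is the comparison for the antibody added to the drug. All 10 genes were higher in mean, from 0.28 for Gbp3 (SE 0.73) to 0.996 for Gbp5 (SE 0.62), with a median of 0.55 beside -0.0065 over all genes. Gbp5 averaged 4.34 ± 3.97 CPM (SD, n = 5) in propafenone and 8.65 ± 5.67 CPM in combination tumours. The log2 difference was 0.83 (SE 0.79) for Gbp6, 0.80 (SE 0.88) for Gbp4, 0.74 (SE 0.59) for Irgm2 and 0.57 (SE 0.75) for Igtp. It was 0.52 (SE 0.75) for Iigp1, 0.46 (SE 0.66) for Gbp7, 0.46 (SE 0.53) for Irgm1 and 0.35 (SE 0.81) for Gbp2. By edgeR 0 of 10 were called (adjusted p 0.346 to 0.859), beside 3.88% of all genes. At an unadjusted p under 0.05 the count was 0 of 10 beside 23.2% of all genes, and DESeq2 and limma-voom called 0 of 10. Groups without overlap made up 8.52% of all genes and 0 of 10 members. Propafenone 2 and 4 exceeded combination 2, 4 and 5 for Gbp2, Gbp3, Gbp4, Gbp6, Gbp7, Igtp, Irgm1, Irgm2 and Iigp1. Without propafenone tumour 4 the median rose to 0.99, and without combination tumour 1 it was 0.25.

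The interaction asks whether the combination differs from the sum of both single effects on the log2 scale. It was above 0 for each member, from 0.61 for Gbp3 (SE 1.04) to 1.57 for Gbp4 (SE 1.25), with a median of 1.01 beside -0.0097 over all genes. Gbp5 had an interaction of 1.37 (SE 0.88), with a 95% interval of -0.48 to 3.21, and Iigp1 one of 1.27 (SE 1.06). The other values were 1.13 (SE 1.12) for Gbp6, 1.04 (SE 0.94) for Gbp7, 0.98 (SE 1.06) for Igtp, 0.87 (SE 0.83) for Irgm2, 0.75 (SE 1.14) for Gbp2 and 0.72 (SE 0.75) for Irgm1. By edgeR 0 of 10 were called (adjusted p 0.990 for each), beside 0.0% of all genes, and 0 of 10 had an unadjusted p under 0.05, beside 3.04%. DESeq2 and limma-voom called 0 of 10. All 10 intervals included 0 and also values above 2, so a difference between the joint and the summed effects was not detected with 5 tumours per group.

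**Figure D4:**
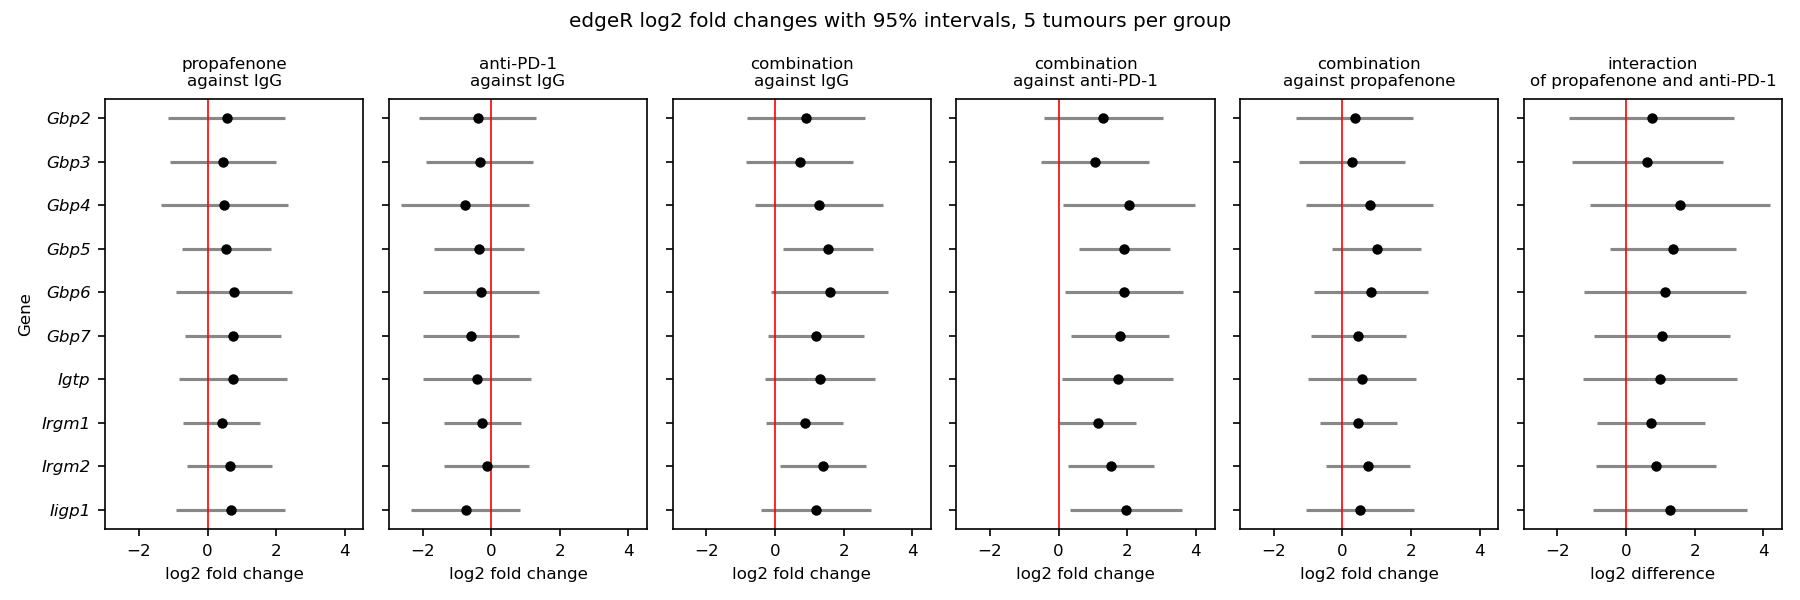
edgeR log2 fold changes of the 10 genes in 6 comparisons, 5 tumours per group; dots are estimates, grey bars are 95% intervals and red lines mark 0. Intervals leave out 0 for Gbp5 and Irgm2 in combination against IgG and for 8 genes in combination against anti-PD-1, before adjustment over all genes.

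Markers of other cell types were measured beside these differences. The 15 T and natural killer cell markers summed to 8.95 to 17.0 CPM in IgG, 6.97 to 26.8 CPM in propafenone, 6.45 to 26.3 CPM in anti-PD-1 and 12.1 to 30.4 CPM in combination tumours. At 0 in at least 1 tumour of a group were 7 of the 15 in IgG (Cd3d, Cd3e and Cd3g among them), 3 in propafenone, 9 in anti-PD-1 (Cd3d, Cd3e, Cd3g and Cd8a among them) and 1 in combination (Ncr1). Of the 14 markers that could be tested, 0 were called in any of these comparisons, with a median log2 difference of 1.14 in combination against IgG and 0.23 in anti-PD-1 against IgG; 2 had an unadjusted edgeR p under 0.05 in combination against IgG and 0 in the other comparisons. The 15 macrophage and monocyte markers summed to 44.8 to 209.8 CPM in IgG, 69.5 to 223 CPM in propafenone, 137 to 261 CPM in anti-PD-1 and 229 to 509 CPM in combination tumours, and no marker was at 0 in any tumour. All 15 were higher in combination against IgG (median 1.67) and against propafenone (median 1.44), each at an unadjusted edgeR p under 0.05. Of these, 10 were called in combination against IgG and 2 against propafenone. Over all genes 4.88% and 3.88% were called in either direction in these comparisons. In anti-PD-1 against IgG, where the members' median was -0.38, the macrophage and monocyte median was 0.80, with 0 of 15 called and 6 at an unadjusted edgeR p under 0.05. All 10 fibroblast markers were higher in combination against IgG (median 1.15, 5 called) and against propafenone (median 1.43, 7 called). Their median was 0.78 in anti-PD-1 against IgG, with 0 called and 6 at an unadjusted edgeR p under 0.05. All 10 endothelial markers were lower in propafenone against IgG (median -0.33, 0 called). The endothelial median was 0.24 in combination against IgG (1 called) and 0.59 against propafenone (2 called). All 13 muscle markers were higher in combination against IgG (median 4.15, 6 called) and against propafenone (median 2.88, 4 called). The 8 keratinocyte markers summed to 1.03 to 2.50 CPM in IgG, where 3 were at 0 in every tumour. They summed to 1.02 to 22.0 CPM in propafenone, 1.31 to 90.3 CPM in anti-PD-1 and 1.01 to 31.9 CPM in combination tumours. Their medians against IgG were 6.21, 6.99 and 6.92 in that order, with 0 called. At an unadjusted edgeR p under 0.05 were 4, 7 and 7, beside 4.75%, 7.58% and 23.6% of all genes. All 7 red blood cell markers were lower in combination against IgG (median -3.80, 2 called) and against propafenone (median -3.15, 1 called). In combination against anti-PD-1 the median was 0.87 for T and natural killer cell markers and 0.75 for macrophage and monocyte markers. It was 0.43 for fibroblast, -0.0048 for endothelial, 0.94 for muscle, -0.29 for keratinocyte and -2.32 for red blood cell markers, with 0 called. An unadjusted edgeR p under 0.05 was found there for 3 macrophage, 2 fibroblast, 1 endothelial, 4 muscle and 5 red blood cell markers. Over all genes this share was 9.78%. With the T and natural killer cell score of each tumour as a covariate, the members' median was -0.055 in combination against IgG, 0.89 in combination against anti-PD-1, -0.026 in combination against propafenone, 0.00036 in propafenone against IgG and -0.82 in anti-PD-1 against IgG. With the macrophage score it was -1.25 in combination against IgG, 0.73 in combination against anti-PD-1, -1.18 in combination against propafenone, -0.11 in propafenone against IgG and -1.89 in anti-PD-1 against IgG. Both of these scores were chosen as covariates after the values were seen. With a muscle score as covariate the median was 0.28 in combination against IgG, 1.71 in combination against anti-PD-1, 0.16 in combination against propafenone, 0.19 in propafenone against IgG and -1.22 in anti-PD-1 against IgG. No member was called in any of these fits. The scores differ between the groups, and the part of these cells in the members' levels was not otherwise tested.

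The upstream genes were measured in the same tumours. Ifng, the cytokine itself, was near the limit of detection, with 0 counts in 6 of 20 tumours (3 of them anti-PD-1), a median of 5 counts and a highest of 32. It was at 0.502, 0.142, 0.0792, 0.125 and 0.0742 CPM in combination tumours 1 to 5. Irf1 averaged 40.2 ± 14.1 CPM (SD, n = 5) in IgG, 45.5 ± 27.7 CPM in propafenone, 32.1 ± 14.03 CPM in anti-PD-1 and 70.5 ± 25.8 CPM in combination tumours, with a log2 difference of 0.81 (SE 0.40) in combination against IgG and 1.13 (SE 0.40) against anti-PD-1. Cd8a, a marker of cytotoxic T cells, had 40 counts in the median tumour and 0 in 1, and averaged 0.591 ± 0.409 CPM, 0.691 ± 0.353 CPM, 0.529 ± 0.553 CPM and 1.45 ± 1.16 CPM in the same order of groups. Irf1 and Cd8a had the same order of group means as the 10 GTPases, while Ifng was higher in IgG than in propafenone tumours. None of the 3 was called in any comparison.

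Across the 20 tumours with group means removed, each member was related to these 3 genes, with p-values adjusted over the 40 relations computed. Of the 3, Irf1 tracked the members most closely, with Pearson r of 0.905 to 0.970 (median 0.947) and Spearman rho of 0.914 to 0.968. The permutation p was 1e-05 for each of the 10, the smallest that 100000 resamples within groups can give, and the adjusted value was 2e-05. For Cd8a r was 0.720 to 0.862 (median 0.806) and rho 0.737 to 0.841, with a largest adjusted permutation p of 0.00016 for r. For Ifng r was 0.624 to 0.691 (median 0.665) and rho 0.573 to 0.716, with adjusted permutation p of 0.0018 to 0.0055 for r and 0.0019 to 0.0087 for rho. Low counts of Ifng limit that last relation. Without the 2 tumours farthest from the median of the regulator or Cd8a, r was 0.895 to 0.969 for Irf1, 0.727 to 0.796 for Cd8a and 0.633 to 0.701 for Ifng. With group means removed, the largest gap between neighbouring values of a gene was at most 0.235 of its range, for Cd8a. These gaps pool the 4 groups and cannot show whether tumours cluster within a group. The labels name no batches within which to repeat these values.

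**Figure D5:**
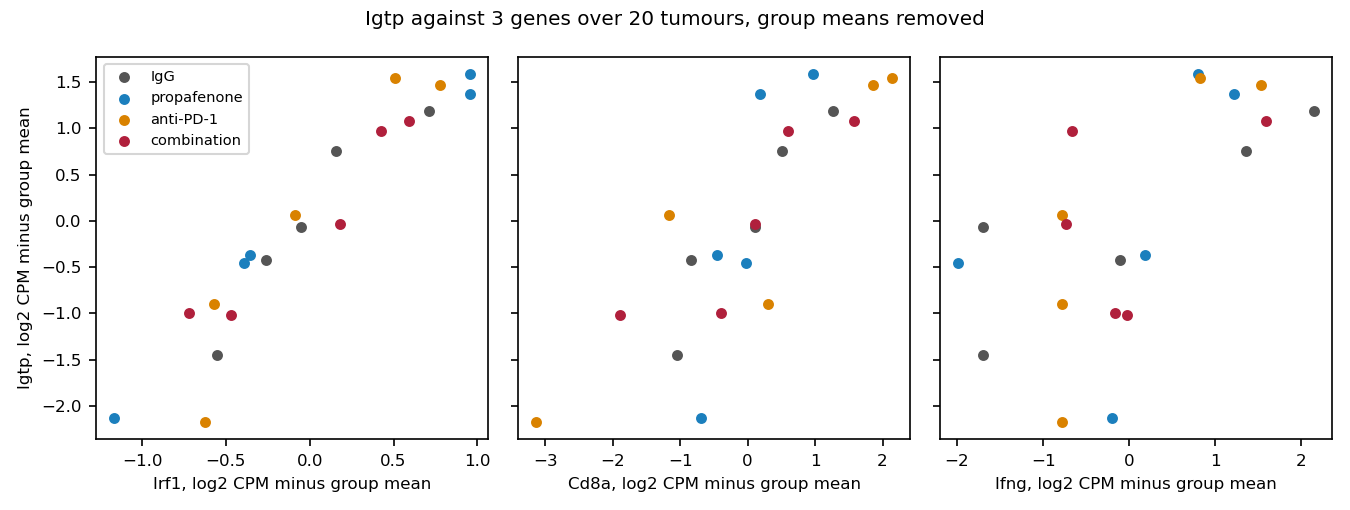
Igtp against Irf1, Cd8a and Ifng in the 20 tumours, all as log2 CPM minus the mean of the tumour's group; colours mark the groups. Points rise along a narrow band for Irf1 and scatter more widely for Ifng, where 6 tumours have 0 counts.

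By the same measure, the genes most like the mean of the 10 members were themselves mostly interferon-inducible GTPases. Over the 20 tumours Tgtp2 had r of 0.991, Tgtp1 0.990, Gm4951 0.988, Gbp10 0.9749 and Olfr56 0.972. Tgtp1 and Tgtp2 are immunity-related GTPases and near-identical copies, so their reads may be split. Olfr56, named for an olfactory receptor, has an annotated span that covers Tgtp1, Tgtp2 and Ifi47, and Gbp10 overlaps Gm43302 as Gbp6 does. Of single genes, Gbp4 and Gbp6 were most like each other (r 0.992), as were Gbp7 and Iigp1 (0.989), which lie on different chromosomes. Igtp was most like Tgtp2 (0.994), Irgm1 most like Igtp (0.984) and Irgm2 most like Irgm1 (0.983). Gbp2 was most like Tgtp1 (0.986), Gbp3 most like Zbp1 (0.975), a sensor of nucleic acids, and Gbp5 most like Irf1 (0.970).

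Other genes of the pathway were counted from lists. Of 13 further interferon-inducible GTPases, 0 were called in any comparison, with medians of 1.36 in combination against IgG and 1.78 against anti-PD-1. The smallest p in combination against IgG belonged to Gvin1, a very large GTPase, at 1.40 (SE 0.42) (edgeR adjusted p 0.0558) and to Gm4841 at 2.18 (SE 0.73) (edgeR adjusted p 0.0839). Of 20 interferon signalling genes 0 were called in any comparison. The nearest in combination against IgG were Irf9 at 0.64 (SE 0.19) and Stat2 at 0.51 (SE 0.18), both parts of the complex that binds the ISRE, with edgeR adjusted p of 0.0557 and 0.0955. Of 23 interferon gamma targets tested, 22 were higher in combination against IgG (median 0.60). At an unadjusted edgeR p under 0.05 there were 5, and 2 were called. They were Fcgr1, a macrophage receptor for IgG, at 1.77 (SE 0.43) (edgeR adjusted p 0.0283) and Aif1, a macrophage gene, at 1.95 (SE 0.54) (edgeR adjusted p 0.0438). Of 25 type I interferon targets 24 were higher in the same comparison (median 0.96), and 17 had an unadjusted edgeR p under 0.05. The 2 called were Ifi44 at 2.11 (SE 0.44) (edgeR adjusted p 0.0199) and Oas2, which makes the activator of RNase L, at 1.74 (SE 0.47) (edgeR adjusted p 0.0397). The shares called stand beside the 2.24% of all genes called higher. In the same comparison 6 of the 13 further GTPases and 9 of the 20 signalling genes had an unadjusted edgeR p under 0.05. Of the 9, Ptpn2 was lower, at -0.22 (SE 0.097). The signalling list shares Irf1 and Socs1 with the interferon gamma targets, and Irf7 and Usp18 with the type I targets, so the counts overlap. The unadjusted counts stand beside 23.6% of all genes. In the other 5 comparisons 0 genes of these lists were called. Combination against anti-PD-1 had 9 of the 13 further GTPases and 8 of the 20 signalling genes at an unadjusted edgeR p under 0.05. The same held there for 7 of the 23 interferon gamma targets and 11 of the 25 type I targets, beside 9.78% of all genes. Of 22 partners of the GTPases in inflammasomes and autophagy 0 were called in any comparison. Their median was 0.039 in combination against IgG, where 7 had an unadjusted edgeR p under 0.05. Among them Casp1, the inflammasome protease, was at 1.20 (SE 0.40) in combination against IgG (edgeR adjusted p 0.0784) and Trim21, an antibody receptor in the cytosol, at 0.97 (SE 0.34) (edgeR adjusted p 0.0927).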

How the data were processed

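RNA from 20 tumours was sequenced from SMARTER mRNA libraries, per the labels' protocols. The deposited gene table holds expected counts, whole numbers summing to 55.99 to 64.51 M (M, 1e6) per library. Among low values 4 and 8 are in excess, so it is unclear how many counts stand for 1 fragment. The other deposited table holds TPM made by the authors, with columns that sum to 1e6. FastQC, HISAT2 2.2.1, SAMtools 1.9 and GRCm38/mm10 are named in the submitters' processing notes. The counting tool, annotation release and strand setting are not given in the sources used here.

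Expected counts were used as deposited in edgeR 4.0.16 (R 4.3.3): TMM scaling, filterByExpr over the 4 groups (15875 genes kept, 99.98% of counts), and a robust quasi-likelihood fit with 1 mean per group and 16 residual degrees of freedom. P-values were adjusted by Benjamini-Hochberg over all genes tested, with calls at 0.05. Standard errors are |log2 fold change| over the root of F. Log2 CPM used a prior count of 2. Simulated data with the average spread of genes at each level were also fitted, so that run does not cover the members' wider spread. Relations used Python 3.11.15 and scipy 1.17.1. Alternatives were DESeq2 1.42.0, limma 3.58.1 (voom, and log2(TPM + 1) or log2(TPM + 0.1)), other scalings and filters, counts divided by 4, only the groups compared, the replicate number as a block, a muscle score as covariate, and left-out libraries. Chosen after the values were seen were the scores of T and natural killer cells and of macrophages as covariates.

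The members and lists were chosen with earlier results of these data known. Named were all 10 members, Ifng, Irf1 and Cd8a, the 5 genes most like the members' mean and the 1 most like each member. Of each pathway list, up to 4 called genes by smallest p in each direction were eligible, or the 2 of smallest p where fewer than 2 passed; those of combination against IgG are printed. Iigp1 sequence is not shown. One further gene of the 40 relations is not reported here. No library was a copy of another in its group: within-group correlations of log2 CPM were 0.958 to 0.986, and chi-square over degrees of freedom was at least 4.20. Pairs from different groups were not checked.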

Additional observations from a re-analysis of the deposited data

Results flagged for a closer look

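In combination tumours, Ifng in tumour 1 stood apart at 0.502 CPM, against 0.142 CPM in the next tumour, a gap of 0.842 of the group's range with a critical value of 0.71 for 5 samples. It was the 1 gap past that value among 56 sets examined (14 genes in 4 groups), where chance gives about 1 in 20. The same tumour was the highest combination tumour for all 10 GTPases.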

How the results depend on the processing

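In each of the 6 comparisons 0 of 10 members were called under every alternative and with any single library left out. The smallest adjusted p over those settings was 0.626 for propafenone against IgG, 0.361 for anti-PD-1 against IgG, 0.0775 for combination against IgG, 0.222 for combination against anti-PD-1, 0.116 for combination against propafenone and 0.766 for the interaction. Over single left-out libraries the members' median ran from 0.18 to 1.05, -0.78 to -0.026, 0.89 to 1.56, 1.44 to 2.14, 0.25 to 0.99 and 0.70 to 1.44 in the same order of comparisons. With the macrophage score as covariate the median was -1.89 in anti-PD-1 against IgG, -1.25 in combination against IgG and -1.18 in combination against propafenone, and with the T and natural killer cell score it was -0.055 in combination against IgG. With the macrophage score it was -0.11 in propafenone against IgG. The T and natural killer cell score also brought it to -0.026 in combination against propafenone. The cause was not tested. With the muscle score as covariate, signs turned for Gbp4 in propafenone against IgG (-0.063), Gbp3 in combination against IgG (-0.097), and Gbp2 (-0.14), Gbp3 (-0.24) and Gbp7 (-0.0096) in combination against propafenone. Without the 5 libraries above 1000 CPM of Hbb-bs, they turned for Gbp3 (-0.078), Gbp4 (-0.11) and Irgm1 (-0.020) in propafenone against IgG and for Irgm2 (0.045) in anti-PD-1 against IgG. With single libraries left out, signs turned for 2 members in propafenone against IgG, Gbp4 (-0.069 to 1.003) and Gbp5 (-0.00012 to 0.83), both without propafenone tumour 4. They turned in anti-PD-1 against IgG for Gbp2 (-0.85 to 0.18), Gbp3 (-0.82 to 0.39), Gbp6 (-0.67 to 0.12) and Irgm2 (-0.54 to 0.085), each without IgG tumour 2 and Irgm2 also without IgG tumour 4 or anti-PD-1 tumour 1 or 2. They also turned for Gbp3 in combination against propafenone (-0.011 to 0.54, without combination tumour 1) and in the interaction (-0.11 to 1.10, without IgG tumour 2). Tumours with equal replicate numbers were not alike on average: deviations from group means correlated at -0.0069 over the 30 such pairs (-0.410 to 0.369). Of these pairs 8 were over 0.1, and 7 of 20 tumours correlated best with their own number. No expected value was computed for these counts, so they do not exclude some pairing. With the replicate number as a block, the medians were 0.54, -0.33, 1.46, 1.87, 0.83 and 1.196, and 0 members were called. All-gene counts changed more: DESeq2 called 3, 21, 1419, 7, 1466 and 2 genes where edgeR called 0, 0, 774, 0, 616 and 0. With low counts of Ifng and Cd8a, depth limits their relations to the members.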
